A study of Mus musculus with 12 samples.

Results

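The smooth-muscle type contractile genes are 10 genes for the actomyosin machinery of smooth muscle and of myofibroblasts: Acta2, Actg2, Tagln, Cnn1, Tpm1, Tpm2, Lmod1, Myh11, Myh9 and Myl9. They were given as a list of names, with no threshold on their values, but were chosen with earlier results of these data known. All 10 were found among the 20661 genes of every count file. All 10 also passed the filter on low counts in every fit. The libraries labelled WT-shARF had less RNA and fewer ribosome footprints of these genes than the WT-shSCR controls (8 of 10 called lower in each assay, where 4.17% and 5.5% of all genes tested were), with the lowest relative levels for Lmod1, Cnn1 and Myh11. In Arf-/--shSCR cells few of them passed the test, and no change in translation efficiency (TE, footprints relative to RNA) passed the test for any of them.

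RNAseq and ribosome profiling were run on mouse embryonic fibroblasts (MEFs), primary cells grown from embryos, in 3 groups with 2 replicates each, which gave 12 libraries. WT MEFs (strain C57BL/6J in the labels, a B6129SF2/J line in the study's methods) carried a lentiviral shRNA with a scrambled sequence (WT-shSCR) or one against the tumor suppressor ARF (WT-shARF). Arf-/- MEFs (B6.129X1-Cdkn2atm1Cjs/KaiJ in the labels) carried the scrambled shRNA (Arf-/--shSCR), and in them a neo cassette takes the place of exon 1β of Cdkn2a while the INK4A product of the same gene is retained. All cells were labelled as passage 4, and all were transduced with lentivirus and selected with puromycin, the controls included. Because Arf-/- and WT cells were separate derivations, the deletion cannot be told apart from other differences between the MEF lines. No source used here says whether replicates were separate cultures, so the p-values measure only the spread between these samples, which may be technical.

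Gene counts ranged from 1578627 to 3989908 per RNAseq library and from 2544319 to 5157572 per ribosome profiling library. Levels are given as CPM (counts per 1000000), scaled by TMM factors within each assay. As a check of the labels, Cdkn2a RNA, counted over both of its products, stood at 44.8 and 41.4 CPM in WT-shSCR, at 27.7 and 32.4 CPM in Arf-/--shSCR, and in the libraries labelled WT-shARF at 638 and 678 CPM. Its count thus went against the knockdown label, and every direction below for these libraries is given for the label only. The study also examined ARF protein in these MEFs by immunoblot, which was not analysed here. Of 8 fibroblast markers, which summed to between 13213 and 17480 CPM in RNA, the collagen genes Col1a1, Col1a2 and Col3a1 and Vim carried nearly all. Thy1 stood at 122 and 103 CPM in WT-shSCR RNA, while Pdgfra (3.77 and 2.55 CPM), Dcn (3.01 and 1.91 CPM) and Lum (0.377 and 2.55 CPM) rested on 1 to 10 counts per library.

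Contraction in smooth muscle and in myofibroblasts comes from myosin filaments pulling on actin filaments. Alpha smooth muscle actin, the product of Acta2, is the usual marker of the myofibroblast. Tropomyosins, calponin and transgelin bind along the actin filament, leiomodin starts new filaments, and the heavy and light chains of myosin form the motor. Many of these genes are switched on together by serum response factor (SRF) and its partners MRTF and myocardin through the CArG box, a short element in their promoters, and by TEAD factors through the MCAT element, under the control of TGFβ and of actin itself.

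Promoter stretches from RefSeq (build GRCm38.p6, 250 bases before to 50 after the gene's start) were matched for 7 members, the exceptions being Tagln, Myh11 and Actg2. They show where the letters of these elements stand, and whether these sites drive the genes was not tested. On both strands the CArG box, a CArG-like box with 1 central base G or C, and the MCAT element CATTCC were searched. Capitals mark the element and the lower-case letters are its 10 flanking bases on each side.
Acta2 CArG-like box at −84 (chr19:34255438-34255467, minus strand): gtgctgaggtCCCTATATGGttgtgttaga
Acta2 CArG-like box at −34 (chr19:34255388-34255417, minus strand): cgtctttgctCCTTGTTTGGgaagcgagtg
Acta2 MCAT at −146 (chr19:34255504-34255529, minus strand): gcagaacagaGGAATGcagtggaaga
Myl9 CArG box at −161 (chr2:156775293-156775322, plus strand): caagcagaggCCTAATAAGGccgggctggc
Myl9 CArG-like box at −99 (chr2:156775355-156775384, plus strand): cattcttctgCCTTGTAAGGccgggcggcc
Lmod1 MCAT at −130 (chr1:135324673-135324698, plus strand): aagattccctGGAATGtcctcaagtt

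Positions are those of the first base of the element counted from the RefSeq start. The MCAT elements printed read CATTCC on the other strand. In GENCODE M21 an exon of an Acta2 transcript with an earlier start covers the Acta2 stretches. Tpm1 held an MCAT element at −56, which lies within the gene as annotated in GENCODE M21. No such letters stood before the start in the windows of Cnn1, Tpm2 and Myh9. Over 32851 promoters of the same length, 1.63% held a CArG box, 8.5% the CArG-like box and 14.7% an MCAT element. Single matches to the CArG-like box and MCAT are thus common, and all matches are given as a description.

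In WT-shSCR cells the members spanned a wide range. Per kilobase of coding sequence, RNA was highest for Acta2 (9377 ± 89.5 CPM per kb, SD, n = 2) and Tagln (5937 ± 404), followed by Tpm1 (1992 ± 153), Myl9 (1246 ± 97.8), Tpm2 (1143 ± 0.421), Actg2 (888 ± 34.1), Cnn1 (872 ± 25.7) and Myh9 (728 ± 71.4). Actg2 and Cnn1 did not differ beyond their spread in this order. The coding length joins all annotated isoforms, 1426 nt for Tpm1 and 1008 nt for Tpm2, whose longest single coding sequences have 978 and 852 nt. The order of genes close in level, such as Myl9 and Tpm2, depends on that choice. Lmod1 (84.1 ± 3.72 CPM per kb) and Myh11 (8.82 ± 1.13), the heavy chain of smooth muscle myosin, were far below the rest, so the smooth muscle motor was scarce beside the nonmuscle heavy chain Myh9. Per kilobase of footprints, Tagln (10290 ± 724 CPM per kb) and Acta2 (9874 ± 67) led and overlapped. Together the 10 genes took 2.36% and 2.53% of all gene counts in the WT-shSCR RNA libraries, 2.33% and 2.19% in Arf-/--shSCR, and 1.93% and 1.83% in those labelled WT-shARF. Of footprint counts they took 3.29% and 3.34% in WT-shSCR, 3.38% and 3.34% in Arf-/--shSCR, and 2.71% and 2.67% in the libraries labelled WT-shARF.

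**Figure D1:**
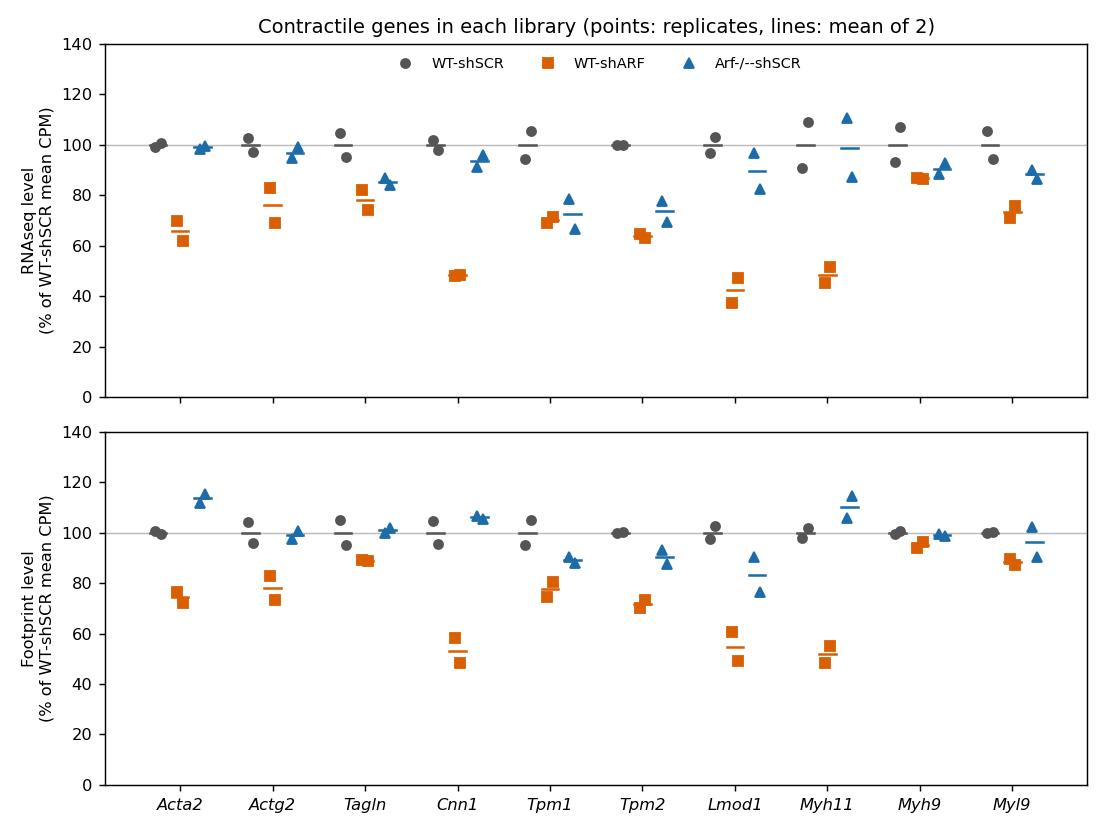
RNAseq (upper panel) and footprint (lower panel) level of each contractile gene in each library, as percent of the mean CPM of the 2 WT-shSCR libraries; points are replicates and short lines their means. Both libraries labelled WT-shARF lie below both WT-shSCR libraries for all 10 genes in each assay. The Arf-/--shSCR libraries lie closer to 100% than these most clearly for Acta2, Actg2, Cnn1, Myh11 and Lmod1.

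The first comparison asks how the contractile genes differ between the libraries labelled WT-shARF and WT-shSCR. In RNA, 8 of 10 members were called lower and 0 higher by edgeR's quasi-likelihood test, where 4.17% of all 10503 genes tested were called lower and 3.11% higher. In footprints, 8 of 10 were called lower and 0 higher, against 5.5% lower and 5.63% higher of all 10307 genes. The median log2 fold change of the 10 genes was -0.57 in RNA and -0.41 in footprints, while that of all genes tested was -0.0012 and -0.0028. In both assays both libraries labelled WT-shARF lay below both WT-shSCR libraries for 10 of 10 members, which held for 23.8% of all genes in RNA and 25.2% in footprints. Because the list was chosen with earlier results of these data known, the excess over all genes describes these members and is no independent test.

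Acta2 RNA, for alpha smooth muscle actin, stood at 10534 and 10677 CPM in WT-shSCR, 7428 and 6569 CPM under the WT-shARF label, and 10435 and 10572 CPM in Arf-/--shSCR. Its footprints were 11221 and 11114 CPM, 8531 and 8062 CPM, and 12492 and 12876 CPM in the same order. The libraries labelled WT-shARF were the low ones in each assay, and no library of another group reached down to them. The log2 fold change against WT-shSCR was -0.62 ± 0.13 in RNA (SE, edgeR adjusted p = 0.00258) and -0.44 ± 0.05 in footprints (adjusted p = 1.55e-08). Actg2, the gamma actin of visceral smooth muscle, had smaller estimates. Its RNA was 1054 and 998 CPM in WT-shSCR, 851 and 709 CPM in those labelled WT-shARF, and 973 and 1017 CPM in Arf-/--shSCR, and its footprints were 1173 and 1080, 934 and 827, and 1098 and 1136 CPM. Its change in the libraries labelled WT-shARF was -0.41 ± 0.13 in RNA (edgeR adjusted p = 0.0474) and -0.37 ± 0.08 in footprints (adjusted p = 0.00114). The RNA call of Actg2 was lost in 7 of 10 alternatives, among them DESeq2 (adjusted p = 0.102), RLE factors (0.0504) and one fit over the 3 groups (0.0821), while the footprint call was lost in 1 of 10. The actins share coding sequence with their relatives: 3.99% of the 28-base windows of Acta2 and 3.36% of those of Actg2 also occur in another gene. Of 20-base windows, 13.3% and 12% do. Reads that align in several places were not counted, so the levels of these genes carry some uncertainty.

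Among the proteins on the actin filament, Cnn1 (calponin, which holds back the myosin motor) had the lowest adjusted p of the members in both assays. Its RNA was 852 and 818 CPM in WT-shSCR, 402 and 405 CPM under the WT-shARF label, and 763 and 802 CPM in Arf-/--shSCR. Its footprints were 915 and 838, 510 and 423, and 935 and 924 CPM. Relative to WT-shSCR, Cnn1 RNA fell by 52.3% (log2 -1.07 ± 0.13, edgeR adjusted p = 1.05e-06) and its footprints fell by 47.2% (log2 -0.92 ± 0.09, adjusted p = 3.63e-09) in the libraries labelled WT-shARF. Lmod1, leiomodin, was the member with the largest RNA change. Its RNA was 145 and 155 CPM in WT-shSCR, 56.3 and 71.1 CPM in those labelled WT-shARF, and 145 and 124 CPM in Arf-/--shSCR, and its footprints were 163 and 171, 101 and 82, and 151 and 128 CPM. That gave a log2 change of -1.24 ± 0.17 in RNA (edgeR adjusted p = 1.2e-05) and -0.89 ± 0.14 in footprints (adjusted p = 2.51e-05) under the WT-shARF label.

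Both tropomyosins were lower too. Tpm2 RNA was 1152 and 1152 CPM in WT-shSCR, 743 and 726 CPM under the WT-shARF label, and 896 and 801 CPM in Arf-/--shSCR, with footprints of 1731 and 1733, 1214 and 1268, and 1613 and 1515 CPM. Tpm1 RNA was 2687 and 2994, 1965 and 2026, and 2227 and 1892 CPM in that order, with footprints of 4615 and 5086, 3620 and 3901, and 4385 and 4270 CPM. For the tropomyosins the Arf-/--shSCR libraries were low as well in RNA, overlapping for Tpm1 with those labelled WT-shARF. Under the WT-shARF label Tpm2 changed by -0.67 ± 0.12 in RNA (edgeR adjusted p = 0.00072) and -0.49 ± 0.07 in footprints (adjusted p = 1.94e-06). Tpm1 changed by -0.53 ± 0.13 in RNA (adjusted p = 0.00795, edgeR) and -0.38 ± 0.06 in footprints (adjusted p = 1.11e-05). Tagln, for the actin bundling protein transgelin (SM22α), had the smallest estimates of the genes named so far. Its RNA was 3753 and 3408 CPM in WT-shSCR, 2937 and 2651 CPM in those labelled WT-shARF and 3109 and 3009 CPM in Arf-/--shSCR, and its footprints were 6513 and 5896, 5521 and 5516, and 6194 and 6326 CPM. The RNA change of -0.37 ± 0.13 missed the threshold (edgeR adjusted p = 0.0713), and the footprint change of -0.18 ± 0.05 passed it (adjusted p = 0.0181).

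The myosin genes split by isoform. Myh11 RNA, rare in these cells, was 47.9 and 57.4 CPM in WT-shSCR, 23.9 and 27.1 CPM under the WT-shARF label, and 58.2 and 45.8 CPM in Arf-/--shSCR, and its footprints were 68.5 and 71.3, 33.8 and 38.5, and 74 and 80.1 CPM. These values rest on 45 to 160 RNA counts per library. Under the WT-shARF label Myh11 changed by -1.04 ± 0.23 in RNA (edgeR adjusted p = 0.00435) and -0.95 ± 0.20 in footprints (adjusted p = 0.00103). Myh9, the heavy chain of nonmuscle myosin IIA found in nearly all cells, was not called. Its RNA was 4001 and 4598 CPM in WT-shSCR, 3737 and 3724 CPM in those labelled WT-shARF and 3806 and 3988 CPM in Arf-/--shSCR, and its footprints were 5800 and 5877, 5473 and 5620, and 5804 and 5760 CPM. Its change under the WT-shARF label was -0.22 ± 0.13 in RNA (edgeR adjusted p = 0.337, 95% interval -0.48 to 0.04) and -0.08 ± 0.05 in footprints (adjusted p = 0.308). Myl9, a regulatory light chain of myosin, was 679 and 607 CPM in WT-shSCR RNA, 457 and 487 CPM in the RNA labelled WT-shARF and 579 and 557 CPM in Arf-/--shSCR, with footprints of 1018 and 1022, 912 and 890, and 1043 and 922 CPM. Its RNA change of -0.46 ± 0.13 passed the threshold (edgeR adjusted p = 0.0224), and its footprint change of -0.19 ± 0.07 did not (adjusted p = 0.0909).

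The members therefore differed in size of change: Lmod1, Cnn1 and Myh11 had RNA changes between -1.24 and -1.04, and the other 7 between -0.67 and -0.22, a split for which no test was made. Within all 10503 genes ranked by RNA change, Lmod1 stood at percentile 1.91, Cnn1 at 2.92 and Myh11 at 3.27, Tpm2 and Acta2 at 8.56 and 9.96, and Myh9 at 30.3. The counts of calls depended on single libraries. Without replicate 2 labelled WT-shARF 3 members were called in RNA (Cnn1, Lmod1 and Myh11), and without replicate 1 of that group 5 were, while the footprint counts stayed between 6 and 8.

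**Figure D2:**
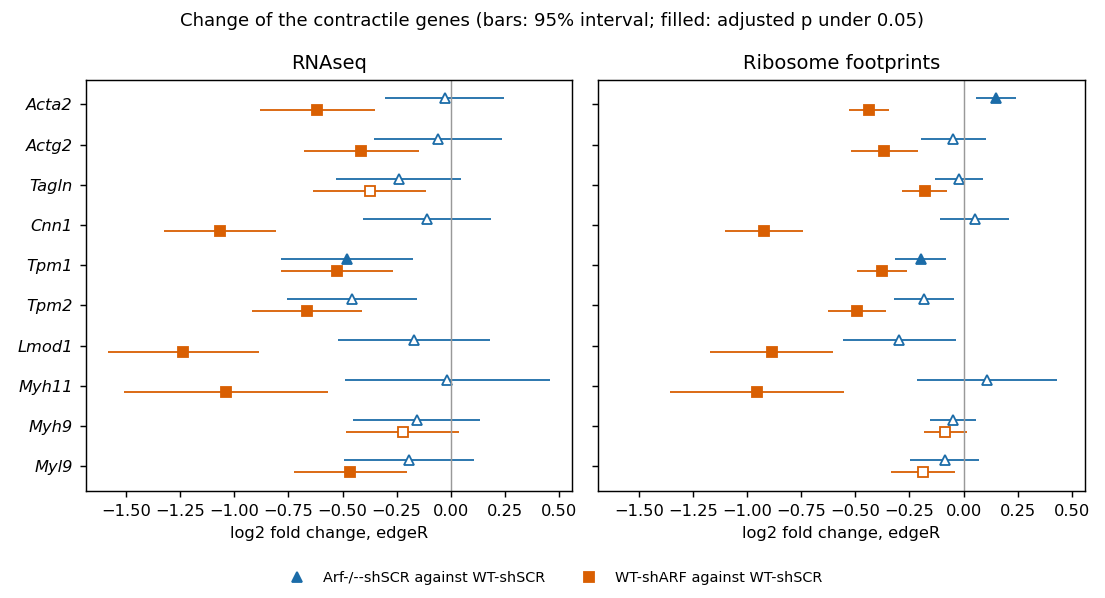
Log2 fold change of each contractile gene against WT-shSCR in RNAseq (left) and ribosome footprints (right), for Arf-/--shSCR (triangles) and the libraries labelled WT-shARF (squares); bars are 95% intervals and filled symbols have an adjusted p under 0.05. For the WT-shARF label 8 genes in each panel are filled and lie below 0, and Arf-/--shSCR has 1 filled symbol in RNA (Tpm1) and 2 in footprints (Acta2 above 0, Tpm1 below).

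The second comparison asks how the same genes differ after deletion of Arf. In RNA, 1 of 10 members, Tpm1, was called lower in Arf-/--shSCR than in WT-shSCR and 0 were called higher, where 3.99% of 10659 genes were called lower and 3.94% higher. Its change was -0.48 ± 0.15 (edgeR adjusted p = 0.0498), next to -0.46 ± 0.14 for Tpm2 (adjusted p = 0.0574). The other 8 lay between -0.24 (Tagln) and -0.02 (Myh11), and the median of all 10 was -0.16. Both Arf-/--shSCR libraries lay below both controls for 7 members, which held for 25.3% of all genes, and overlapped with them for Acta2, Myh11 and Actg2. For the 8 members other than the tropomyosins the 95% intervals include 0, as for Acta2 (-0.31 to 0.25) and Cnn1 (-0.40 to 0.19), while those of Tpm1 (-0.78 to -0.17) and Tpm2 (-0.75 to -0.16) lie below it. The call of Tpm1 was lost in 7 of 11 alternatives, each of which left 0 members called. It was lost without either WT-shSCR replicate and without Arf-/--shSCR replicate 2. DESeq2, RLE factors, a filter of 10 counts per library and a replicate block lost it too.

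In footprints of Arf-/--shSCR cells, 1 member rose and 1 fell, where 9.57% of 10737 genes were called higher and 8.95% lower. Acta2 was higher by 0.15 ± 0.04 (edgeR adjusted p = 0.0167), which is 10.9%, and Tpm1 fell by 0.20 ± 0.06 on the log2 scale (adjusted p = 0.013). Tpm2 was at -0.18 ± 0.07 (edgeR adjusted p = 0.0599) and Lmod1 at -0.30 ± 0.13 (adjusted p = 0.113), neither past the threshold. Both Arf-/--shSCR libraries lay above both controls for 3 members (Acta2, Cnn1 and Myh11), which held for 30.6% of all genes, and below them for 3 (Tpm1, Tpm2 and Lmod1), which held for 26.9%. Without either WT-shSCR replicate, or without Arf-/--shSCR replicate 2, 0 members were called. Leaving out a WT-shSCR replicate left 0 calls over all genes, with 1359 genes higher and 1108 lower at an unadjusted p under 0.05 without replicate 1, and 1353 and 1200 without replicate 2.

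Since both comparisons share the WT-shSCR libraries, the difference between them was tested directly by setting Arf-/--shSCR against the libraries labelled WT-shARF. In RNA, 4 of 10 members were called higher in Arf-/--shSCR and 0 lower, where 1.38% of 10632 genes were called higher and 1.19% lower. They were Lmod1 (1.06 ± 0.17, edgeR adjusted p = 0.00606), Myh11 (1.01 ± 0.22, adjusted p = 0.0296), Cnn1 (0.95 ± 0.12, adjusted p = 0.00144) and Acta2 (0.58 ± 0.11, adjusted p = 0.0114). For the tropomyosins the differences of 0.04 ± 0.12 (Tpm1, 95% interval -0.22 to 0.29) and 0.20 ± 0.12 (Tpm2, -0.06 to 0.46) did not pass.

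In footprints 8 members were called higher in Arf-/--shSCR than under the WT-shARF label and 0 lower, against 3.93% higher and 4.3% lower of 10941 genes. Myh11 (1.05 ± 0.16, edgeR adjusted p = 0.000406) and Cnn1 (0.97 ± 0.08, adjusted p = 3.48e-07) differed most, followed by Acta2 and Lmod1 (both 0.58), Actg2 (0.31), Tpm2 (0.30), Tpm1 (0.17) and Tagln (0.15). Myl9 (0.09 ± 0.07) and Myh9 (0.03 ± 0.04) did not pass, and for Myh9 the 95% interval of -0.05 to 0.11 is narrow. Both Arf-/--shSCR libraries lay above both libraries labelled WT-shARF for 9 members in RNA, all but Tpm1, and for 10 in footprints, which held for 23.3% and 28% of all genes. Without either replicate labelled WT-shARF 0 members were called in either assay. Over all genes 0 higher and 6 lower calls then remained in RNA without replicate 2, and 16 and 19 without replicate 1. In footprints 0 higher and 1 lower remained without replicate 2, and 0 in all without replicate 1 (743 higher and 710 lower at an unadjusted p under 0.05).

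TE was compared by the interaction of assay and cells, since RNA and footprint libraries of a replicate are not known to be from the same dish. None of the 10 members was called in Arf-/--shSCR against WT-shSCR, under the WT-shARF label against WT-shSCR, or between these, where 0.194%, 0.0354% and 0.043% of all genes were called in either direction. At an unadjusted p under 0.05 the members counted 0, 0 and 1, the last being Lmod1 (-0.48 ± 0.23). DESeq2 called 0 in each, but it gave no adjusted p for 10748 of 11314, 10724 of 11289 and 8795 of 11632 genes. A member without an adjusted p could not be called there. In Arf-/--shSCR the TE changes ran from -0.16 (Lmod1) to 0.25 (Tpm1). Under the WT-shARF label all 10 estimates lay above 0, from 0.06 ± 0.15 for Actg2 to 0.36 ± 0.22 for Lmod1, with a median of 0.17, and Myl9 (0.29 ± 0.14, edgeR adjusted p = 0.763) had the lowest p. Each footprint change under that label was smaller in size than the RNA change of the same gene. In simulated libraries of this depth the test found 20% of those genes whose TE had been shifted by 1 log2 unit. Those genes were drawn from all that passed the filter, whatever their counts, so this rate does not describe the members. The SE of the members' TE change under the WT-shARF label ran from 0.115 (Acta2) to 0.304 (Myh11), so differences of the size seen here may still be missed.

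**Figure D3:**
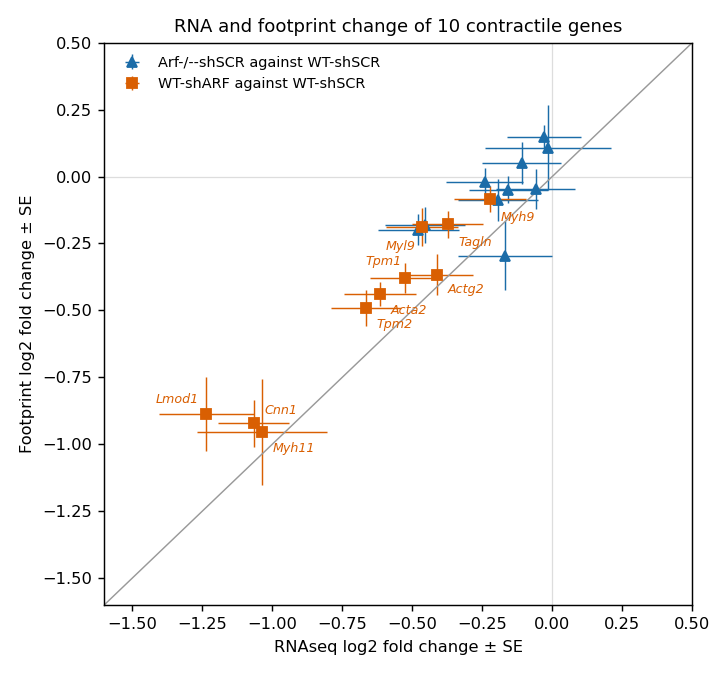
Footprint log2 fold change (y axis) against RNAseq log2 fold change (x axis) of the 10 contractile genes, with SE as bars, for Arf-/--shSCR (triangles) and the libraries labelled WT-shARF (squares, named), both against the same WT-shSCR libraries; the grey line marks equal change. All 10 squares lie above the line and below 0 on both axes, with Lmod1, Cnn1 and Myh11 apart at the lower left.

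As a level within WT-shSCR cells, TE placed the members above the median of 11603 genes. Cnn1 stood at percentile 56.9, Acta2 at 57.2, Actg2 at 59.9 and Lmod1 at 60.6, while Tpm2 (77.7), Myl9 (80.1), Tpm1 (83.4) and Tagln (84) stood higher. Myh11 (71.5) and Myh9 (72.2) lay between. The estimates for the smooth muscle actins and calponin were thus lower than those for the tropomyosins and transgelin, a difference between genes that also carries any effect of sequence on library making.

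The rest of the contractile apparatus was read from a list of 37 other contractile and actin-regulating genes. Under the WT-shARF label, RNA of 0 rose and 3 fell among 32 tested, with a median of -0.14, where 3.11% of all genes rose and 4.17% fell. They were Tgfb1i1 (-1.40 ± 0.16, edgeR adjusted p = 5.74e-07), for the focal adhesion protein Hic-5, Des (-1.13 ± 0.19, adjusted p = 0.000192), for the muscle intermediate filament desmin, and Acta1 (-0.81 ± 0.20, adjusted p = 0.00907), for skeletal muscle actin. Des RNA was 104 and 92.4 CPM in WT-shSCR, 44.1 and 46.8 CPM under the WT-shARF label and 109 and 135 CPM in Arf-/--shSCR, lowest under the WT-shARF label as for Cnn1. In footprints 2 rose and 8 fell of 32, where 5.63% of all genes rose and 5.5% fell. In Arf-/--shSCR, RNA of 1 of 33 fell, Acta1 (-1.25 ± 0.21, edgeR adjusted p = 0.000727), and in footprints 6 rose and 5 fell of 34, Tagln2 (0.40 ± 0.07) and Tpm4 (0.29 ± 0.08) among those higher. Over all genes 3.99% fell in Arf-/--shSCR RNA, and 9.57% rose and 8.95% fell in its footprints. Most actin-regulating genes outside the members thus did not pass the test in either comparison. The share of them that fell in footprints under the WT-shARF label was still above that of all genes.

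Genes that drive the programme gave few calls. Of 22 regulators, 21 were tested in RNA, and under the WT-shARF label 0 rose and 1 fell, the TGFβ receptor gene Tgfbr2 (-0.65 ± 0.20, edgeR adjusted p = 0.0398), which also fell in Arf-/--shSCR (-1.17 ± 0.22, adjusted p = 0.00206). There the homeobox gene Prrx1 (0.97 ± 0.25) and Tead2 (0.66 ± 0.17) rose. Over all genes 4.17% fell in RNA under the WT-shARF label, and in Arf-/--shSCR 3.99% fell and 3.94% rose. Srf RNA was 123 and 80.3 CPM in WT-shSCR, 86 and 76.5 CPM under the WT-shARF label and 102 and 147 CPM in Arf-/--shSCR, and its change under the WT-shARF label (-0.37 ± 0.19, edgeR adjusted p = 0.264) did not pass. Mkl1, for MRTF-A, was at -0.43 ± 0.21 in RNA (adjusted p = 0.235, edgeR) and -0.41 ± 0.14 in footprints (adjusted p = 0.0595). Myocd, for the smooth muscle cofactor myocardin, lay between 1.27 and 3.33 CPM in the RNA libraries. In footprints under the WT-shARF label 1 of 22 rose (Tead3) and 1 fell (Tgfbr1), where 5.63% and 5.5% of all genes did. In Arf-/--shSCR footprints 1 rose (Prrx1) and 2 fell (Tgfb1 and Tgfb2), where 9.57% and 8.95% of all genes did.

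Other target genes of SRF with MRTF or of YAP were followed as a list of 12. Under the WT-shARF label 3 fell and 0 rose in RNA: Itga5 (-0.60 ± 0.14, edgeR adjusted p = 0.00776), for the fibronectin receptor subunit, Ankrd1 (-0.59 ± 0.14, adjusted p = 0.00757) and Amotl2 (-0.44 ± 0.13, adjusted p = 0.0361). In footprints 5 fell and 0 rose of 11 tested, Itga5 and Ankrd1 again among them. Over all genes 4.17% fell in RNA and 5.5% in footprints under that label. In Arf-/--shSCR 1 fell in RNA, Thbs1 (-0.57 ± 0.14, edgeR adjusted p = 0.0127), and in footprints 5 fell and 1 rose of 11. There 3.99% of all genes fell in RNA, and 8.95% fell and 9.57% rose in footprints. Between Arf-/--shSCR and the WT-shARF label, 0 were called higher and 1 lower in RNA, Thbs1 (-0.67 ± 0.10, edgeR adjusted p = 0.00378), the opposite sign to the contractile members. In footprints 3 of 12 were called higher and 2 lower, where 3.93% and 4.3% of all genes were. Egr1 (0.92 ± 0.22) and Fhl1 (0.65 ± 0.06), with the sign of the members, were among those higher, and Thbs1 (-0.68 ± 0.03) was among those lower.

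**Figure D4:**
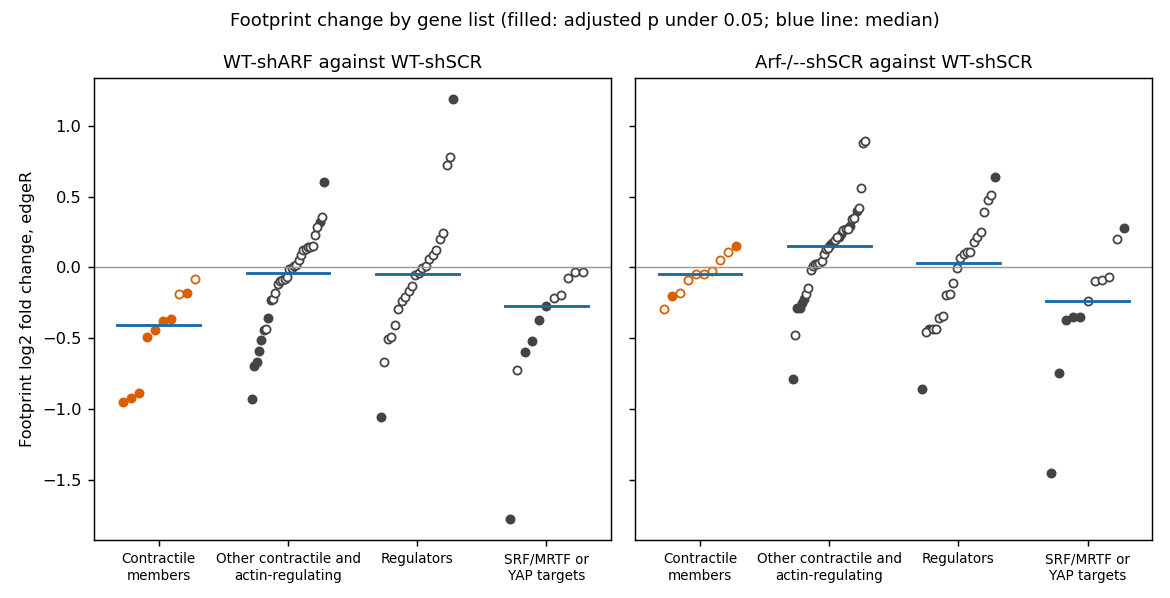
Footprint log2 fold change of the tested genes of each list (10 contractile members, other contractile and actin-regulating genes, regulators, and SRF/MRTF or YAP targets), for the libraries labelled WT-shARF (left) and Arf-/--shSCR (right) against WT-shSCR; filled points have an adjusted p under 0.05 and blue lines are medians. On the left the member median is -0.41 beside -0.04 for the other contractile genes, -0.05 for the regulators and -0.27 for the targets, and on the right the members lie around -0.05.

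Markers of other cells moved with the groups too. The smooth muscle list, in which 4 of 8 genes are members, summed to 2245 to 2324 CPM in WT-shSCR RNA, 1399 to 1533 CPM under the WT-shARF label and 2194 to 2265 CPM in Arf-/--shSCR, with no gene at 0. In WT-shSCR, Actg2 (mean 1026 CPM) and Cnn1 (mean 835 CPM) carried most of it, so the sum mostly repeats the members. Outside the members, Des RNA was lower under the WT-shARF label, while Smtn RNA was 113 and 113 CPM in WT-shSCR and 144 and 133 CPM under that label. In footprints 5 of the 8 were called lower under that label and 3 had estimates above 0. The 10 macrophage markers summed to 570 and 591 CPM in WT-shSCR, 272 and 200 CPM under the WT-shARF label, and 35.3 and 63.6 CPM in Arf-/--shSCR, where they were lowest. The fibroblast list summed to 14054 and 14349, 16277 and 17480, and 14167 and 13213 CPM, and was thus highest under the WT-shARF label. Single markers of the list that rose were Col1a1 (0.45 ± 0.13, edgeR adjusted p = 0.0258) and Col3a1 (1.15 ± 0.13, adjusted p = 5.74e-07), while Vim (-0.04 ± 0.13) and Thy1 (-0.35 ± 0.17) did not pass. The 9 epithelial or mesothelial markers summed to 96.8 and 96.2, 57.9 and 70.1, and 165 and 186 CPM. The 7 pericyte markers summed to 476 to 518, 528 to 598 and 459 to 513 CPM (Kcnj8 at 0 under the WT-shARF label), those of skeletal or cardiac muscle to between 50.2 and 103 CPM with Myl1 at 0 in WT-shSCR, and those of endothelium to between 22 and 39.9 CPM with Cdh5 at 0 in WT-shSCR and Arf-/--shSCR. The part of cell composition in the results was not tested, and in bulk samples fewer cells of a type and less RNA per cell cannot be told apart.

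The genes whose pattern was most like the mean of the 10 members over the 12 libraries, each assay centred on its own mean, were found among 7490 genes of at least 10 CPM in each assay. They were Anxa2 (Pearson r = 0.989), Sgpl1 (0.977), Tgfb1i1 (0.968), Anxa6 (0.961) and Grb14 (0.960), as a description only, since the libraries share their groups. Anxa2 and Anxa6 are annexins, which bind membranes in the presence of calcium, and Sgpl1 breaks down sphingosine 1-phosphate. Anxa2 changed by -1.22 in RNA (edgeR adjusted p = 9.19e-08) and -1.03 in footprints (adjusted p = 6.65e-13) under the WT-shARF label, and Sgpl1 by -1.47 and -1.57. Among the members themselves, correlation with the mean of the other 9 ran from 0.694 for Myh9 and 0.740 for Tpm1 to 0.939 for Lmod1 and 0.959 for Cnn1.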

How the data were processed

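RNAseq and ribosome profiling libraries (RNA fragments of like size and RNase footprints) were deposited as raw counts per gene. Per the study's methods, the authors clipped adapters, split barcodes, extracted molecular identifiers (no removal of duplicates is named), removed rRNA and noncoding RNA reads with Bowtie2, aligned with TopHat to mm10 and obtained counts on coding sequences with HTSeq; versions are not given in the sources used here. These counts carry no normalization. Rows that name no gene held 94.74 to 96.83% of RNAseq and 57.12 to 64.82% of footprint entries, mostly multiple alignments, and were left out.

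The counts entered edgeR 4.0.16 (R 4.3.3), which gave TMM factors, the filterByExpr filter and quasi-likelihood F tests over 4 libraries, or 8 for TE (interaction of assay and cells), with Benjamini-Hochberg adjustment over all genes tested and a threshold of 0.05. The alternatives, DESeq2 1.42.0 among them, are listed in the closing section. With 2 replicates per group the smallest exact permutation p is 0.33. On simulated counts of WT-shARF against WT-shSCR, edgeR recovered 53.5% (RNA, 10295 genes), 50.3% (footprints, 10117) and 20% (TE, 11115) of genes changed by a log2 of 1. Coding lengths and positions came from GENCODE M21, promoters from RefSeq, and figures were drawn in Python 3.11.15 with matplotlib 3.10.9.

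The members and the gene lists were chosen with earlier results of these data known. All 10 members are named in every comparison, and of each list at most the 3 largest changes called without overlap of replicates. Desmin levels, Smtn, Srf, Mkl1 and Myocd were chosen after their values were seen.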

Additional observations from a re-analysis of the deposited data

Results flagged for a closer look

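In the direct test of Arf-/--shSCR against the libraries labelled WT-shARF, several contractile genes differed, which means that their changes against the shared WT-shSCR libraries differed between the 2 kinds of cells. In RNA the log2 differences that passed edgeR's test were 1.06 for Lmod1, 1.01 for Myh11, 0.95 for Cnn1 and 0.58 for Acta2, all higher in Arf-/--shSCR. In footprints they were 1.05 for Myh11, 0.97 for Cnn1, 0.58 for Acta2, 0.58 for Lmod1, 0.31 for Actg2, 0.30 for Tpm2, 0.17 for Tpm1 and 0.15 for Tagln. Each of these 12 calls was lost without either replicate labelled WT-shARF. The Cdkn2a counts of these libraries go against their label, so no direction is assigned to loss of ARF. With 2 replicates per group no check for single aberrant samples was possible.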

How the results depend on the processing

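Alternatives were DESeq2, RLE factors, dropping the filter or asking for 10 counts per library, one fit over the 3 groups, a replicate block and leaving out each replicate (a lone sample is then assumed to vary like the other group). Counts of members called that moved by over 1.5 times from the reported ones are given here, and the cause was not tested. For RNA of Arf-/--shSCR against WT-shSCR (1 called), DESeq2, RLE factors, the 10-count filter and the replicate block gave 0, and no filter and the joint fit gave 2. For its footprints (2 called), DESeq2 gave 1. For RNA of Arf-/--shSCR against the WT-shARF label (4 called), the replicate block gave 2. Leaving out 1 replicate gave 0 to 1, 0 to 2 and 0 to 4 in these, 3 to 9 in RNA and 6 to 8 in footprints of the WT-shARF label against WT-shSCR, and 0 to 7 in footprints of Arf-/--shSCR against that label. Smaller moves were, without leaving out a replicate, 7 to 9 in RNA of the WT-shARF label against WT-shSCR (8 reported; Actg2 lost with DESeq2, RLE factors, the 10-count filter and the joint fit, Tagln gained without filter and with the replicate block), 3 with the joint fit in Arf-/--shSCR footprints (Tpm2 gained), and 6 with DESeq2 or the joint fit in footprints of Arf-/--shSCR against that label (8 reported; Tagln and Tpm1 lost in both). In TE 0 were called in all alternatives, but DESeq2 gave no adjusted p for most genes, and a missing value was counted as not called. Equally numbered replicates did not deviate together in RNA (r = -0.0665, 0.007 and -0.0622) or footprints (0.0357, 0.0116 and 0.0434), so the replicate block shares only a number. A crossed pairing, chosen after seeing the data because r was -0.118 among genes of at least 30 counts, called 2 members in RNA of Arf-/--shSCR against WT-shSCR and 5 against the WT-shARF label. Changes near 0 turned sign. Leaving out 1 replicate gave ranges from -0.20 to 0.15 (Myh11, RNA, Arf-/--shSCR against WT-shSCR) and from -0.082 to 0.16 (Tpm1, RNA, Arf-/--shSCR against the WT-shARF label). In Arf-/--shSCR footprints against WT-shSCR the ranges were -0.083 to 0.058 (Tagln, and 0.013 without filter), -0.0034 to 0.12 (Cnn1), -0.17 to 0.0048 (Myl9) and -0.096 to 0.019 (Actg2). In TE against WT-shSCR they were -0.010 to 0.24 (Myh9), -0.11 to 0.33 (Myh11) and -0.031 to 0.078 (Actg2) for Arf-/--shSCR, and -0.040 to 0.21 (Myh11) and -0.017 to 0.12 (Actg2) under the WT-shARF label. TE of Actg2 in Arf-/--shSCR was 0.0124 with DESeq2, 0.012 with RLE factors, 0.109 without filter and 0.045 in the joint fit. Of the values for single members in RNA, footprints and TE (the TE contrast of Arf-/--shSCR with the WT-shARF label left out), 727 kept direction and side of the threshold, 65 lost and 9 gained the call. Depth limits mainly Myh11 and Lmod1, the members with the fewest counts, and TE.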
